A study of Arabidopsis thaliana with 32 samples.

Results

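The cDNA features described here were those with a raised log2 ratio over the early time points of a LEAFY induction series and a low mean ratio over the late ones. They numbered 36 of the 10816 features on the array. LEAFY (LFY) is a plant transcription factor that gives floral fate to new meristems and switches on floral regulators such as APETALA1. In the 35S:LFY-GR transgene it is fused to the hormone-binding domain of the glucocorticoid receptor, and the fusion acts in the nucleus only once a steroid such as dexamethasone is present. Targets of a factor induced in this way can change within hours, and some return to their starting level while others stay changed.

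Each array compared callus of 35S:LFY-GR plants kept in a dexamethasone-containing solution with callus of the same genotype kept in a control solution for the same time. The times were 0, 2, 4, 6, 8, 10, 12 and 22 h, with 4 arrays at each and 32 in all. The description names root explants as the source, and the array was enriched for flower-specific transcripts. The transgene, driven by the 35S promoter that is active in most plant tissues, was present on both sides of every array, and callus without it was not analysed here, so effects of dexamethasone itself and of LFY-GR cannot be told apart. Nothing in the labels ties the 4 arrays at a given time to separate cultures, so p-values here reflect array-to-array spread that may be only technical.

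The treated sample was in channel 2 on replicates 1 and 3 and in channel 1 on replicates 2 and 4, and the ratios of replicates 2 and 4 were sign-turned so that all 32 run the same way. The sources used here do not state which channel was the numerator. A positive ratio means more signal with dexamethasone than with the control solution if channel 2 was divided by channel 1 before deposit. That order is likely by convention, and otherwise every sign below exchanges. Before turning, arrays of opposite orientation at the same time correlated on average between -0.29 and -0.02 from 2 h on, and arrays of the same orientation between 0.12 and 0.33; at 0 h the averages were 0.17 and 0.18. The lowest correlation between 2 arrays of the same orientation was -0.31, for the replicate 1 arrays of 0 and 2 h. These correlations would be the same with all signs exchanged and do not settle the numerator. None of the 10816 feature identifiers matched a gene in the RefSeq annotation of TAIR10.1, so no gene, function, sequence or tissue marker is given. Several features can hold clones of a single transcript, so a count of features is not a count of genes.

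Between 10646 and 10809 features had a value on each array, and 0.982% of all values lay at the limits of the deposited scale and were treated as missing. Array medians over all features were between -0.05 and 0.05 on the log2 scale. Some arrays stood apart in many of the 36 features. Replicates 1 and 2 lay below replicates 3 and 4 at 22 h. Replicate 4 was the highest of the 4 arrays in 16 of the 21 narrow features described below at 0 h, in 21 at 8 h and in 20 at 10 h. At these times it also stood apart, on the other side, in 37 features that met the criteria below with all signs exchanged. The replicate 4 medians of those 37 were -0.64 (0 h), -1.22 (8 h) and -0.79 (10 h), each the lowest of 4 arrays. At 2, 4 and 6 h replicate 4 was not the lowest array of the 37. At 12 h it was their highest, at 0.27, and also the highest of the 36, at 0.39. The 10 h and 12 h arrays were used in choosing both sets. Over all features the replicate 4 medians were -0.007 (0 h), -0.004 (8 h) and -0.026 (10 h). Whether replicate 4 differs as an array was not tested. Medians of the 37 on replicates 1 to 4 of 22 h were 0.99, -0.34, 0.07 and -0.24, so replicates 1 and 2 lay on opposite sides of 0.

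The 36 features were chosen on the ratios themselves. The early mean, over the 12 arrays at 2, 4 and 6 h, had to be at least 0.35 on the log2 scale, with 9 or more positive values. The late mean, over the 12 arrays at 10, 12 and 22 h, had to be below 0.2 and at least 0.3 below the early mean. Of the 10475 features with 10 or more values in each period, 237 met the early criteria, and 175 of these had a late mean of at least 0.35. Those 175 are called the features that kept a raised ratio and serve as the comparison.

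The early mean of the 36 features ranged from 0.35 to 1.06 with a median of 0.46, and the late mean from -0.21 to 0.18 with a median of 0.05. These values made the choice and are given as a description. The lowest early mean inside was 0.353, and the highest among features that missed on the early mean alone was 0.348. The highest late mean inside was 0.182 and the nearest outside was 0.243. The smallest difference of early minus late mean inside was 0.308 and the nearest outside was 0.296. On the number of positive early values, 8 of the 36 stood at the minimum of 9, and 18 features missed with 8 positive values. The plot of early against late means shows the 36 beside the other features.

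**Figure D1:**
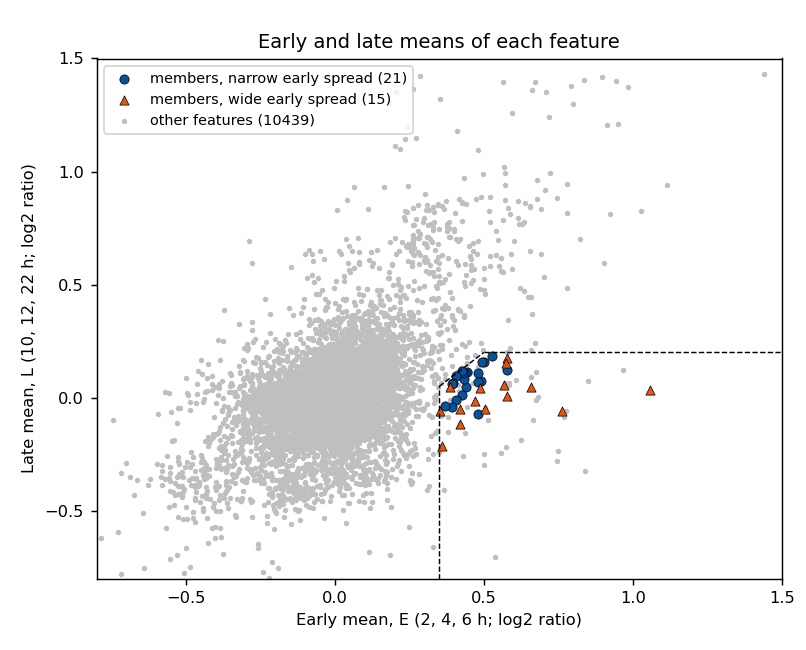
Early mean log2 ratio (2, 4 and 6 h, 12 arrays) on the horizontal axis against late mean (10, 12 and 22 h, 12 arrays) on the vertical axis, 1 point per feature, with the 36 chosen features in colour over the others. Of the other features, 10361 lie within the axes and 78 outside them; the 36 have early means between 0.35 and 1.06 and late means between -0.21 and 0.18.

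The 36 features were of 2 kinds. In 21 of them the 12 early values were tightly spaced, with an SD between 0.20 and 0.38, and in the other 15 the early SD was between 0.55 and 1.44. The median early SD over all features was 0.271. No feature lay in the gap between these ranges, and the division was made there after the values had been seen, so it is a description and no test was made of it. The 21 are called narrow and the 15 wide.

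The narrow features were raised on nearly every early array. All 12 early values were positive in 9 of the 21, and the early mean stayed at 0.35 or more in 18 of 21 when the highest array was left out. None of the 21 had a missing value or a value at the limits of the scale. The wide features were less even. The early mean stayed at 0.35 or more without the highest array in 6 of 15, and none had all 12 early values positive. Their highest early value ranged from 1.42 to 4.57. The early criteria and the division by early SD in large part set these early values in both groups, so they are a description. Values at the limits occurred in 7 of the 15 wide features, against 8.16% of all features, and 5 of the 15 had missing values. The map of all values by array shows narrow features in even columns and wide features in scattered cells.

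**Figure D2:**
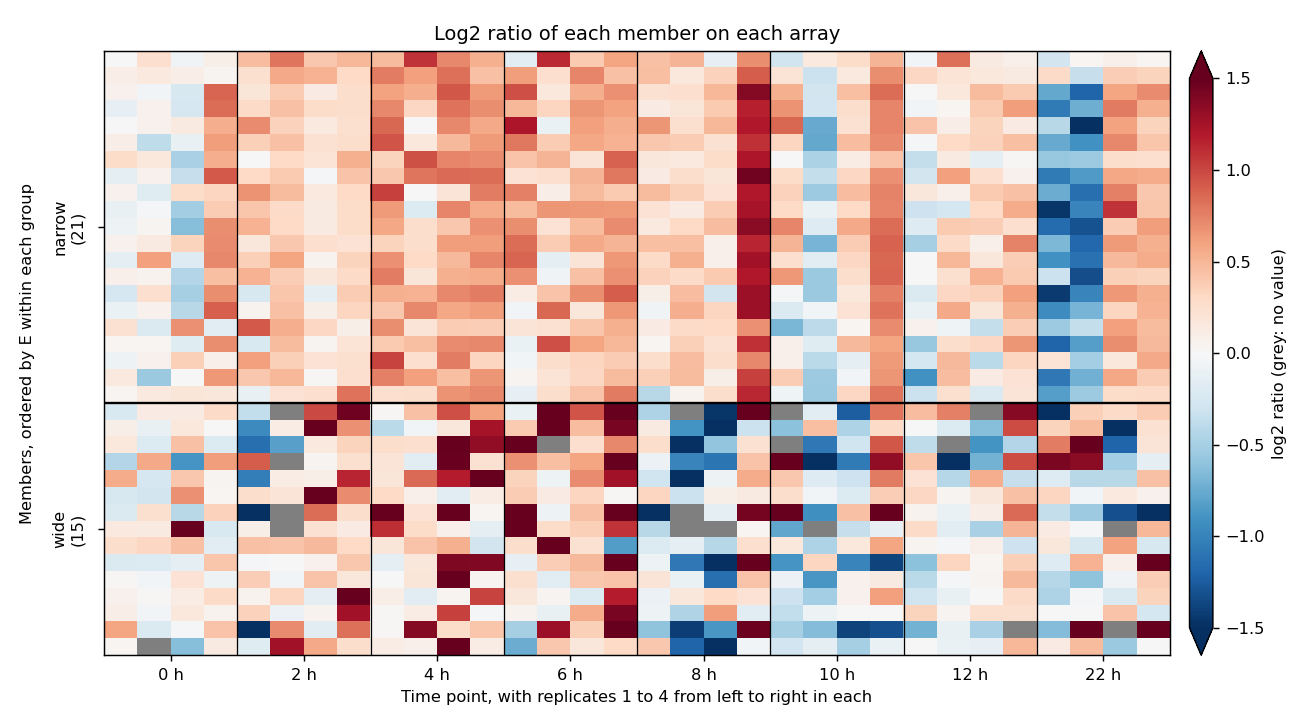
Log2 ratio of each of the 36 features (down the page, 21 narrow above 15 wide, ordered by early mean) on each of the 32 arrays (across, by time point, with replicates 1 to 4 from left to right in each), on a colour scale that ends at -1.5 and 1.5, with missing values in grey. Narrow features share the dark column of replicate 4 at 8 h and the blue columns of replicates 1 and 2 at 22 h; wide features have single dark cells.

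The median of the narrow features on each array shows their time course. At 0 h it was 0.03, 0.07, -0.18 and 0.62 on replicates 1, 2, 3 and 4. At 2 h it was 0.35, 0.41, 0.15 and 0.27. At 4 h it was 0.64, 0.30, 0.71 and 0.64. The 4 h arrays were thus all above 0, and 3 of them were above every 2 h array.

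At 6 h the median of the narrow features was 0.47, 0.26, 0.47 and 0.60. At 8 h, a time the choice did not use, it was 0.23, 0.30, 0.27 and 1.197, so all 4 arrays were above 0 and replicate 4 was far above the rest. At 10 h it was 0.28, -0.40, 0.28 and 0.73, and at 12 h it was -0.10, 0.26, 0.26 and 0.37. At 10 and 12 h the narrow features were thus above 0 on 3 of the 4 arrays.

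At 22 h the median of the narrow features was -0.77, -0.85, 0.58 and 0.48 on replicates 1, 2, 3 and 4. The low late mean that put these features among the 36 was therefore an average of arrays below 0 and arrays above 0, and a return to baseline was not seen on each array.

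The median of the wide features was lower and less even. At 2 h it was -0.03, 0.11, 0.22 and 0.41, at 4 h 0.11, 0.18, 1.03 and 0.23, and at 6 h 0.26, 0.32, 0.40 and 1.26. At 8 h it was -0.08, -0.94, -0.73 and 0.25. At 22 h it was -0.01, 0.01, -0.21 and 0.23. The median was thus near 0 on replicates 1 and 2, below 0 on replicate 3 and above 0 on replicate 4. Single wide features at 22 h ranged from -2.70 on replicate 1 to 2.86 on replicate 2.

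Over the 36 features the array medians averaged 0.11 ± 0.17 before any treatment time had passed (0 h; SD over arrays, n = 4 here and below). The averages were 0.27 ± 0.09 at 2 h, 0.50 ± 0.21 at 4 h and 0.44 ± 0.17 at 6 h. Later they were 0.40 ± 0.47 after 8 h, 0.16 ± 0.45 after 10 h, 0.16 ± 0.17 after 12 h and -0.07 ± 0.52 after 22 h. For the features that kept a raised ratio the average was 0.00 ± 0.05 at 0 h and 0.39 ± 0.06 at 2 h. It was then 0.65 ± 0.14 after 4 h, 0.71 ± 0.10 after 6 h and 0.80 ± 0.23 after 8 h, and reached 0.88 ± 0.15 after 10 h, 0.86 ± 0.10 after 12 h and 1.01 ± 0.12 after 22 h. The spread of the 36 at 22 h was the widest of their 8 time points, while the 4 arrays of the features that kept a raised ratio lay at 1.05, 0.84, 1.12 and 1.01 there. The highest time mean came at 2 h in 3 of the 36 features, at 4 h in 17 and at 6 h in 11. In 4 others it came at 8 h, and in 1 at 22 h. Among the features that kept a raised ratio it came at 22 h in 109 of 175. The limits on the early and late means that define both sets largely set these times, so they are a description.

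**Figure D3:**
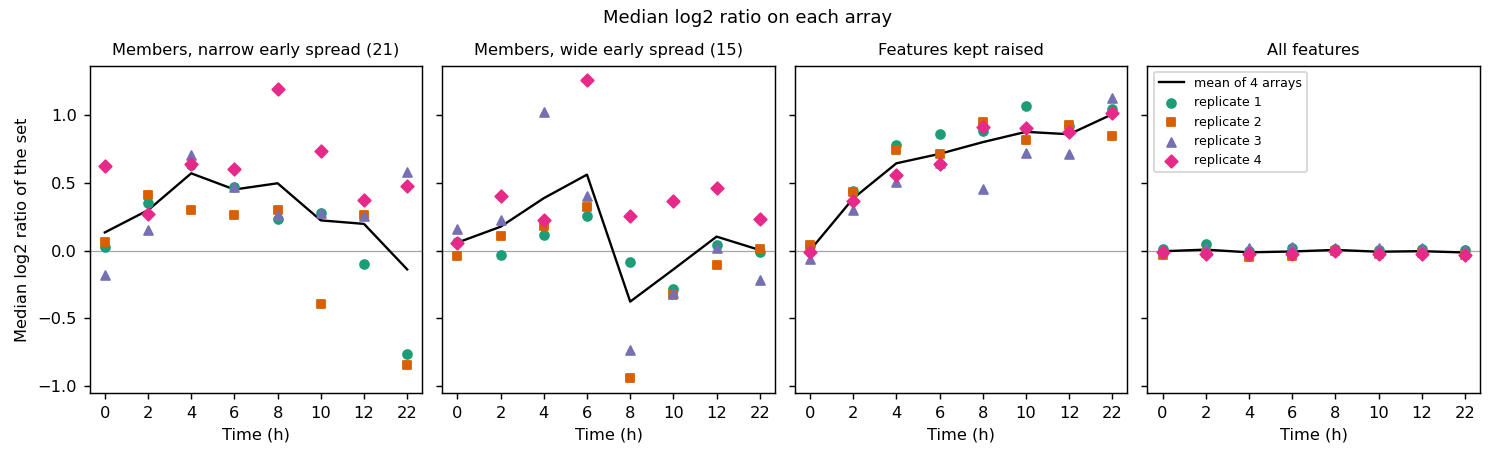
Median log2 ratio on each array (points) and the mean of the 4 arrays (line) by time point, for the narrow features, the wide features, the features that kept a raised ratio and all features, from left to right; the time points are evenly spaced although the step from 12 to 22 h is longer. The narrow features lie at -0.77 and -0.85 on replicates 1 and 2 at 22 h and at 0.58 and 0.48 on replicates 3 and 4.

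At 22 h the signs were split by replicate number. Replicates 1 and 2 were below 0 and replicates 3 and 4 above 0 in 18 of the 21 narrow features, and in none of the 13 wide features with 4 values. That is 18 of the 34 features with 4 values, or 52.9%, against a background of 4.82% of all features with 4 values at 22 h. The low late mean used in the choice includes these arrays, so the excess is a description. None of the 172 features that kept a raised ratio and had 4 values showed this split. All 4 values at 22 h were positive in 0 of the 34 features, against 161 of the 172. The limits on the late mean that define both sets include the 22 h arrays. They in large part set both comparisons with the features that kept a raised ratio. Replicates 1 and 2 hold both orientations, as do replicates 3 and 4, so the split does not follow the dye orientation.

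The late mean differed in the same way. Taken over replicates 1 and 2 it had a median of -0.29 in the narrow features, ranging from -0.49 to 0.06, and 0 of 21 reached 0.2. Over replicates 3 and 4 its median was 0.46, ranging from 0.15 to 0.57, and 18 of 21 reached 0.2. The early mean of the narrow features had a median of 0.42 on replicates 1 and 2 and 0.47 on replicates 3 and 4. On replicates 3 and 4 the narrow features were thus about as high late as early. In the wide features the early mean had a median of 0.22 on replicates 1 and 2 and 0.74 on replicates 3 and 4, and the late mean -0.06 and 0.06.

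The same criteria were applied with other sets of late arrays, chosen after the data had been seen. Without the 22 h arrays 22 features met them, of which 18 were among the 36, with 6 narrow and 12 wide. Without replicates 1 and 2 at 22 h 15 met them, of which 14 were among the 36, with 3 narrow and 11 wide, and the late mean of the narrow features had a median of 0.28. Without replicates 3 and 4 at 22 h 44 met them, of which 32 were among the 36, with all 21 narrow and 11 wide. Whether replicates 1 and 2 at 22 h differ from the others in handling or in biology was not tested.

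**Figure D4:**
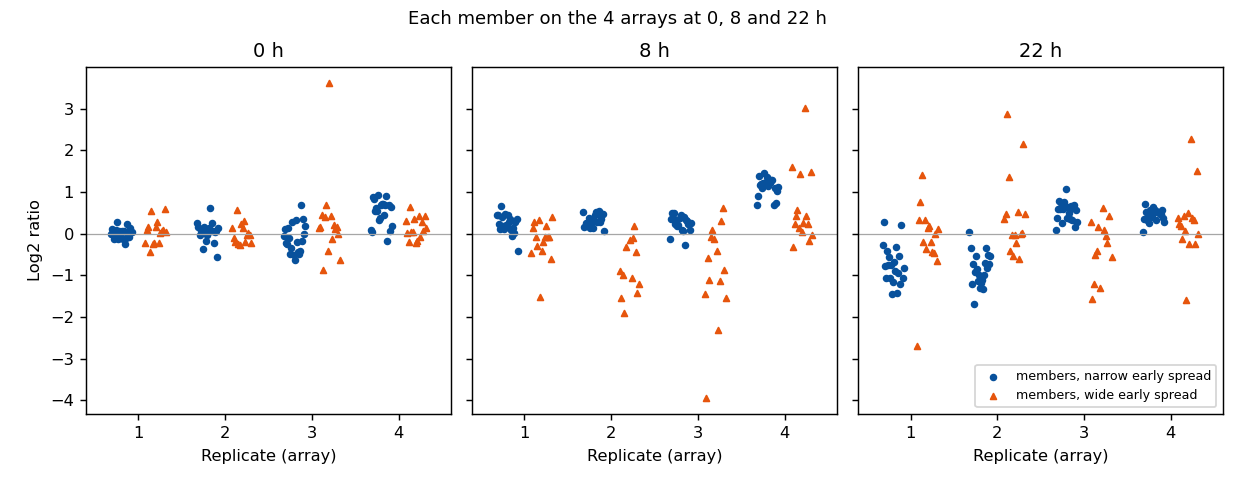
Log2 ratio of each of the 36 features (points; circles narrow, triangles wide) on replicates 1 to 4 at 0, 8 and 22 h, with a line at 0. At 8 h the narrow features are above 0 on most arrays and highest on replicate 4; at 22 h most lie below 0 on replicates 1 and 2 and above 0 on replicates 3 and 4.

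The 8 h arrays were not used in choosing the features, though they share replicate numbers and, in the fit, a variance estimate with the arrays that were used. limma was fitted to all 32 arrays with a term for dye, and p-values were adjusted over the 10567 features fitted. Of the 36, all of which were fitted, 1 was called above 0 (2.78%) and 0 were called below 0. The background among all features was 2.36% above 0 and 0.852% below 0, so the share of the 36 called in this fit was near the background. At an unadjusted p under 0.05, 16 of the 36 (44.4%) were above 0, all of them narrow, against 7.86% of all features, and 2 (5.56%) were below 0, both wide, against 6.7%. Without replicate 4, 2 of the 30 features that could be fitted (6.67%) were above 0 at that unadjusted p, against 7.37% of all features, and 4 (13.3%) were below 0, against 6.84%. The number called was 0 without replicate 1, 3 or 4, where the background above 0 was 1.97%, 2.5% and 1.47%. Without replicate 2, 4 of 35 (11.4%) were called above 0, against 1.62% of all features. In a fit of the 0 and 8 h arrays alone, which shares no variance with arrays used in the choice, limma called 0 of the 36, against 1.39% of all features above 0 and 0.422% below 0. At an unadjusted p under 0.05 that fit had 19 of the 36 above 0 (52.8%), against 7.44% of all features, and 1 below 0 (2.78%), against 5.58%.

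The 8 h ratios of the narrow features ranged from 0.26 to 0.65 with a median of 0.49, and 21 of 21 were above 0. Their adjusted p-values ranged from 0.0335 to 0.628 (limma). The 8 h ratios of the wide features ranged from -1.26 to 0.15 with a median of -0.15, and 12 of 15 were below 0, with adjusted p-values from 0.191 to 0.990 (limma). The median over the 36 was 0.39 and over all features 0.00. Of all features with a value at 8 h, 5409 of 10790 had a mean above 0. The narrow features had like profiles across arrays, as given below, so 21 of 21 does not count separate observations. All 4 values at 8 h were positive in 17 of the 33 features with 4 values, or 51.5%, against a background of 9.8%; these 17 were narrow. Replicate 4 was the highest of the 4 in 21 of 21 narrow features, against 24.8% of all features, and without replicate 4 the median 8 h ratio of the 21 narrow features was 0.27 in place of 0.49.

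The feature called at 8 h was GP132H12, singled out because of that call. Its log2 ratio was 0.45, 0.16, 0.35 and 0.91 on replicates 1, 2, 3 and 4 at 8 h. All 4 arrays lay above 0, and replicate 4 was the highest. The fitted ratio was 0.46 with a standard error of 0.12 and an adjusted p of 0.0335 (limma). Without replicate 1, 3 or 4 it lost the call, with adjusted p-values of 0.151, 0.0978 and 0.244 (limma), and over the 16 alternatives that kept the sign the adjusted p ranged from 0.0124 to 0.428. At 22 h its ratio was 0.29, -0.34, 0.37 and 0.34, so replicate 2 alone was below 0.

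The 0 h arrays were not used in the choice. Of the 36, 0 were called at 0 h by limma, with 1 at an unadjusted p under 0.05 and adjusted p-values of 0.9996. The background was 0% on both sides, since limma called 0 of the 10567 features, with 96 positive (0.908%) and 197 negative (1.86%) at an unadjusted p under 0.05. All 4 values at 0 h were positive in 5 of 35 features, against a background of 2.98%. The mean ratio at 0 h was above 0 in 31 of the 36, against 5361 of 10785 features in all. These were 20 of 21 narrow and 11 of 15 wide features, so most of the 36 had a mean above 0 at 0 h. Without replicate 4 the median 0 h ratio was -0.01 over the 30 features that could be fitted and -0.05 over the 21 narrow ones. Narrow features had like profiles, so 20 of 21 does not count separate observations. Replicate 3 was above 0 in 8 of the 21 narrow features at 0 h, with a median of -0.18. Replicate 4 was above 0 in 20 of the 21 narrow features at 0 h, where their median was 0.62 on that array.

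The difference between 8 h and 0 h was tested directly. Of the 36, 0 were called by limma, against a background of 0.672% above 0 and 0.132% below 0. At an unadjusted p under 0.05 there was 1 of the 36 (2.78%), which was above 0, against 5.19% of all features above 0 and 3.05% below 0. The narrow features differed by 0.13 to 0.56, and 21 of 21 were above 0. The wide features differed by -1.29 to 0.03, and 12 of 15 were below 0. The median difference over all features was 0.00. Narrow features had like profiles on these arrays, as given below, so 21 of 21 does not count separate observations. The lowest adjusted p among the 36 was 0.5995 (limma).

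The features with the largest early means and the lowest late means were all wide. GP005G4 had the highest early mean, 1.06, and its ratio at 6 h was -0.10, 3.28, 0.95 and 3.40 on replicates 1, 2, 3 and 4. Replicates 2 and 4 carried most of that mean, and 3 of its values lay at the limits of the scale. At 8 h it was -0.46, -1.46 and 1.59 on replicates 1, 3 and 4, with replicate 2 missing, so the arrays lay on both sides of 0. The fitted 8 h ratio was 0.11 with an adjusted p of 0.964 (limma), and it turned to -0.11 without the dye term and to -1.74 with limit values kept.

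GP032D8 had the next highest early mean, 0.76, with a ratio at 6 h of 0.40, 3.12, 0.46 and 1.42 and at 2 h of -0.95, 0.11, 2.94 and 0.69. At both times single arrays stood above the rest, and at 8 h it was 0.13, -0.90, -3.94 and -0.33. The fitted 8 h ratio was -1.26 with a standard error of 0.49 and an adjusted p of 0.191 (limma).

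GP010H7 had the lowest late mean, -0.21. At 10 h its ratio was -0.50, -0.64, -1.39 and -1.32, all below 0, while at 22 h it was -0.65, 2.16 and 1.52 on replicates 1, 2 and 4, with replicate 3 missing. GP067G4 had the next lowest late mean, -0.12. Its ratio at 4 h was 0.00, 0.18, 2.997 and 0.04, and without replicate 3 at 4 h its early mean was 0.19 in place of 0.42, so a single array put it among the 36.

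The choice was repeated on 3 replicates at a time and read on the replicate left out. With 9 arrays per period, 8 or more values in each and 7 or more positive early values were asked for. Of the features chosen without replicate 1, 13 of 34 were among the 36, and without replicate 2, 13 of 35. Without replicate 3 it was 24 of 52, and without replicate 4, 24 of 51. Narrow features numbered 3, 6, 19 and 19 in these sets, in the same order. Most features in each set were thus outside the 36, and the values below describe the sets and not the 36. Chosen without replicate 1, 34 features had a median early mean of -0.10 and a late mean of 0.11 on replicate 1, and 16 of 34 had an early mean above the late mean. Chosen without replicate 2, 35 features had a median early mean of -0.00072 and a late mean of -0.13 on replicate 2, and 21 of 35 had an early mean above the late mean. Chosen without replicate 3, 52 features had medians of 0.28 early and 0.19 late on replicate 3, and 27 of 52 had an early mean above the late mean. Chosen without replicate 4, 51 features had medians of 0.39 early and 0.42 late on replicate 4, and 14 of 51 had an early mean above the late mean. Among all features the share with an early mean above the late mean was 51.3%, 48.5%, 50.8% and 48.9% on replicates 1, 2, 3 and 4. The share of the chosen features was thus near that of all features on replicates 1 and 3. It was above it on replicate 2 and below it on replicate 4. The early mean was above 0 in 13 of 34, 17 of 35, 42 of 52 and 44 of 51 features when replicate 1, 2, 3 or 4 was left out. Over all features the median early mean on these replicates was 0.02, -0.03, 0.02 and -0.02.

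The narrow features had like profiles across arrays. Over the 210 pairs of narrow features the median correlation across the 32 arrays was 0.73, ranging from 0.09 to 0.94. Across the 8 arrays at 0 and 8 h, which the choice did not use, the median was 0.76. Over the pairs of wide features the median was 0.19 across the 32 arrays and 0.41 across the 8. These correlations are descriptions: the arrays are shared by all features, and clones of a single transcript would correlate in the same way. A correlation of at least 0.8 with the median profile of the narrow features was found for 16 of 21 narrow features, none of 14 wide features, none of 174 features that kept a raised ratio and 37 of 10467 features in all (0.353%). The profile came from features chosen on most of these arrays. The choice thus in large part set the counts for narrow features and for those that kept a raised ratio. The 37 include 21 features outside the 36, whose early means ranged from -0.10 to 0.50 and late means from -0.48 to 0.24, and of which 14 had an early mean below 0.35.

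The identifiers hold a number, a letter from A to H and a second number, read here as plate, row and column. Rows G and H held 20 of the 36 features (55.6%), with 11 of 21 narrow and 9 of 15 wide, against 25% of all features, 24% of the features that kept a raised ratio and 21.6% of the 37 features that met the same criteria with all signs exchanged. Row B held none and row A held 1. The 36 features came from 31 of the 114 plates, with at most 3 on any plate. Over the arrays, the median of all features in rows G and H was between -0.10 and 0.14 and in rows A and B between -0.15 and 0.08. The part of well position in the result was not tested.

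**Figure D5:**
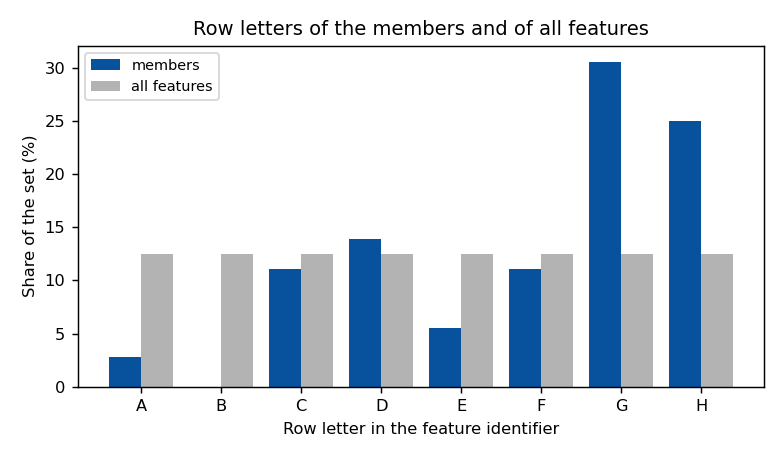
Share of features in each plate row A to H, in percent, for the 36 features (dark bars) and all 10816 features (grey bars). Rows G and H together hold 55.6% of the 36 features and 25% of all features.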

How the data were processed

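Two-channel cDNA arrays were measured at 8 times with 4 arrays each. Per the labels' description, the authors analysed the arrays with Rosetta Resolver; the sources used here do not give its version, the background correction, the normalization or the numerator. The deposited values are log10 ratios between -2 and 2. They were multiplied by 3.3219 to give log2, replicates 2 and 4 were sign-turned, and values at the limits were set missing. The members and lists were chosen with earlier results of these data known. Features named are the 2 with the largest early mean and the 2 with the lowest late mean, besides the called feature. The gene lists set down for LFY targets, hormone response and cell types could not be used, since 0 of 10816 features had a gene name; the targeted gene was not checked for the same reason.

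limma 3.58.1 in R 4.3.3 was fitted to all 32 arrays with a coefficient per time and a dye term, on 10567 features with a value in each orientation at each time, and Benjamini-Hochberg adjustment was made over all of them. A call is an adjusted p under 0.05. Arrays limit the precision by their number. In simulated data for the 8 h test on 10567 features, 48 of 100 features at a log2 ratio of 0.5 and 87 of 100 at 1 were recovered. The simulated noise was drawn separately for each array with each feature's own SD. Deviations shared by arrays of the same replicate number were not simulated, so recovery in the real data may differ. Alternatives covered limit values, dye, block, centring, scaling, filters and left-out replicates.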

Additional observations from a re-analysis of the deposited data

Results flagged for a closer look

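Each of the following values lay apart from the other 3 arrays of its time point by more than Dixon's 95% critical value for 4 values. Of 58 groups of 4 arrays looked at, 9 did so. Chance alone gives such a value in about 1 in 20 groups, but the groups overlap, and 7 of the 9 are at times used to choose the features, so their number is not read against chance. The median of the 36 features was 1.11 on replicate 4 at 8 h, and that of the narrow features was 1.197 on the same array. For the wide features the median was 1.03 on replicate 3 at 4 h, 1.26 on replicate 4 at 6 h and 0.37 on replicate 4 at 10 h. Single features also had such values: GP005G4 had -2.70 on replicate 1 at 22 h, GP032D8 had -1.56 on replicate 3 at 22 h, GP067G4 had 2.997 on replicate 3 at 4 h, and GP132H12 had -0.34 on replicate 2 at 22 h. Their causes were not tested.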

How the results depend on the processing

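The direction of every ratio rests on an unstated numerator, the features have no gene names, and 4 arrays per time limit the precision. Of the 36 features, 1 was called at 8 h by limma. The count was 2 with a replicate block, 0 with arrays averaged in pairs and 0 with the 0 and 8 h arrays alone. It was 0 of 30 with replicates 1 and 2 alone, 5 of 33 with replicates 3 and 4 alone and 0 at an adjusted p under 0.01. With 1 replicate left out it was between 0 and 4, with 4 without replicate 2 and 0 without replicate 1, 3 or 4. The positive-side counts were the same. With the sign turned, 0 were called above 0 and 1 below 0. Counts at 0 h and for 8 h minus 0 h were 0 in every alternative run. The median 8 h ratio, over the 29 to 36 features each alternative could fit, was between 0.20 and 0.61 in the other alternatives and -0.39 with the sign turned. Over all features 339 of 10567 were called at 8 h, against 590 of 10567 with the replicate block. Arrays averaged in pairs gave 182 of 10481, and the 0 and 8 h arrays alone gave 193 of 10659. Replicates 1 and 2 alone gave 268 of 9989 (184 above 0), and replicates 3 and 4 alone 218 of 10145 (145 above 0). There were 216 of 10409 without replicate 2 and 178 of 10567 at an adjusted p under 0.01. The labels tie same-numbered arrays by number alone, and not every pair was alike: their deviations correlated at 0.234 on average (lowest -0.065), against -0.078 between other numbers, with 97 of 112 pairs over 0.1 and 30 of 32 arrays closest to their own number, and with the dye effect taken out at 0.0859, against -0.029 between other numbers, with 47 of 112 pairs and 19 of 32 arrays. At 8 h GP005G4 had -1.74 with limit values kept, -0.11 without the dye term and -0.11 with the sign turned. GP067G4 had between -0.41 and 0.17 when 1 replicate was left out, 0.17 being without replicate 3, 0.047 with replicates 1 and 2 alone and 0.15 with the sign turned. With the sign turned GP032D8 had 1.26, GP010H7 0.35 and GP132H12 -0.46. GP132H12 lost its call in 7 alternatives. The criteria chose 56 features with limit values kept, of which 32 were among the 36, 22 without the 22 h arrays, 15 without replicates 1 and 2 at 22 h, 27 after scaling, and 34 to 52 when 1 replicate was left out. The cause of these changes was not tested.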
